A study of Gallus gallus with 54 samples.

Results

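Genes that were counted far more in the spleen of indigenous Ethiopian chickens (Gallus gallus) than in heart or breast muscle are described here. Their level was taken as CPM, a gene's count divided by the total count of its library in M (mega) counts. A gene was a member when its mean over the 18 spleens was at least 20 CPM and at least 32 times its mean in heart and in breast muscle, and when the standard deviation (SD) of its log2(CPM + 1) over the 18 spleens was below 1.5. Of 24881 genes, 308 met the limits on level and fold, 302 of these met the limit on SD, and the 300 with the highest spleen mean were kept. The tissue difference and the upper bound on the spread were therefore set by the choice and are given as description, with no test.

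Messenger RNA was sequenced from 3 tissues of birds of a low altitude breed labelled as adapted to heat and of a high altitude breed labelled as not adapted to heat. There were 9 libraries each of low altitude spleen, high altitude spleen, low altitude heart, high altitude heart, low altitude breast muscle and high altitude breast muscle, 54 in all. The codes L1 to L9 and H1 to H9 recur in each tissue, but whether libraries of one code come from one bird is not stated in the labels, nor are age, sex or batch. The p-values below thus measure the spread between libraries. Altitude, breed and labelled adaptation to heat coincide and cannot be told apart, so low over high altitude below stands for all of these.

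The spleen filters blood and is a major site of immune responses to antigens carried in it. In birds, which lack the encapsulated lymph nodes of mammals, it is a main secondary lymphoid organ. It holds B cells and plasma cells, T cells, macrophages, dendritic cells, thrombocytes, red cells and a stroma that organises them. Genes read far more in spleen than in striated muscle can come from any of these cells. The files give Ensembl gene identifiers without symbols, and 0 of the 24881 could be matched to the 25635 genes of the reference table (assembly GRCg7b), so no member is given a name, a role or a cell type, no marker list could be read, and no sequence is shown.

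Spleen libraries held 11.6 to 14.3 M counts, with 12.4 to 15.2 M in hearts and 9.31 to 13.1 M in breast muscles. The median Spearman correlation of a library with the others of its tissue ran from 0.938 to 0.971 in spleen, from 0.886 to 0.954 in heart and from 0.833 to 0.955 in breast muscle, where H1, H8, H4 and H7 were the 4 lowest. The TMM scaling factor, which corrects for libraries whose counts are held by few genes, had a median of 1.79 in spleen, 0.801 in heart and 0.648 in breast muscle. With CPM scaled by these factors only 105 genes passed all limits, against 302, so the size of the group depended on how the tissues were scaled. All 105 were among the 300.

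The 300 genes covered a wide range of levels. Their spleen means ran from 20.5 to 11139 CPM with a median of 85.7 CPM. There were 12 genes at 1000 CPM or more, 127 between 100 and 1000, 60 between 50 and 100 and 101 under 50. CPM are not corrected for gene length, so this order is one of counts and not of transcripts. The 2 genes with the highest means held 24.9% of the members' CPM in spleen, and the 10 highest held 41.2%. Every member had a count in all 18 spleens. In bulk tissue a lower level can be fewer cells of a type or less RNA per cell, and these cannot be told apart.

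**Figure D1:**
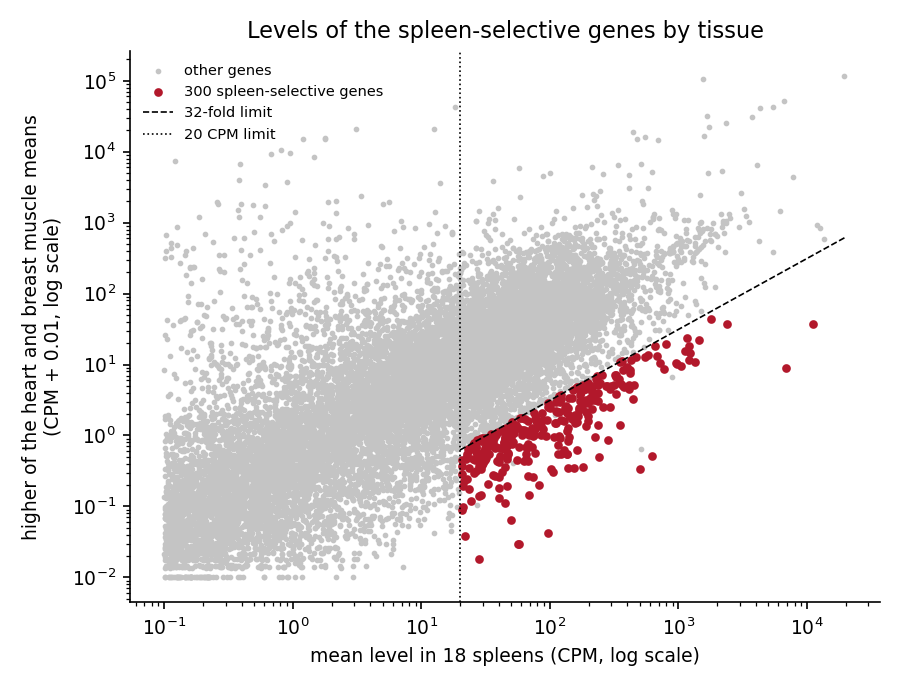
Mean level of each gene over 18 spleens (x axis, CPM, log scale) against the higher of its heart and breast muscle means (y axis, CPM + 0.01, log scale). The 300 spleen-selective genes (red) lie below the 32-fold line and right of 20 CPM, and 2 of them stand far to the right, at 11139 and 6805 CPM.

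ENSGALG00000021139 had the highest mean, 11139 ± 6306 CPM in spleen (SD, n = 18), against 37.0 ± 51.4 CPM in heart and 6.67 ± 6.84 CPM in breast muscle (n = 18 each). It ran from 908 to 15965 CPM with a median of 11444 CPM in low altitude spleens, and from 1090 to 26199 CPM with a median of 9653 CPM in high altitude spleens. The lowest spleens were L9 at 908 CPM and H4 at 1090 CPM, and the next lowest, H6, was at 5848 CPM. The groups overlapped, but 4 of the 9 high altitude spleens, H1, H7, H3 and H8, lay above the highest low altitude spleen.

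ENSGALG00000011551 followed with 6805 ± 3895 CPM in spleen, against 8.95 ± 11.5 CPM in heart and 4.69 ± 3.38 CPM in breast muscle (SD, n = 18 each). It was lowest in L9 at 584 CPM and in H4 at 690 CPM, as was the gene with the highest mean. Over the 18 spleens, with each altitude centred on its mean, the log2 levels of ENSGALG00000021139 and ENSGALG00000011551 correlated with a Pearson r of 0.909. The points share library and depth, and the r is given as a description.

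ENSGALG00000016986, the third by level, varied far less, with 2393 ± 529 CPM in spleen (SD, n = 18). It lay between 1803 and 3453 CPM in low altitude spleens and between 1452 and 3144 CPM in high altitude spleens. In heart it had 36.8 ± 20.04 CPM and in breast muscle 8.72 ± 4.204 CPM (n = 18 each).

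The fold over the other tissues was mostly close to the limit that chose the genes. The ratio of the spleen mean to the higher of the other means had quartiles of 44.2 and 99.2 and a median of 61.5. It was 64 or more for 145 genes, 100 or more for 75 and 1000 or more for 6. Other means were floored at 3 counts over the 18 libraries of a tissue. The highest ratios were 2964 for ENSGALG00000027209, 2930 for ENSGALG00000007831 and 2918 for ENSGALG00000005544. These genes were of middling level in spleen, with 97.3 ± 42.8, 57.8 ± 23.2 and 56.6 ± 37.3 CPM in the order named (SD, n = 18). ENSGALG00000027209 had 7 counts in all hearts together and 7 in all breast muscles, ENSGALG00000007831 had 1 and 4, and ENSGALG00000005544 had 5 and 1, so their ratios rest on a few reads.

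The remaining counts outside spleen were higher in heart than in breast muscle. Of the 300 genes, 279 (93%) had the higher mean CPM in heart and 21 in breast muscle, where 62.3% of the 20514 genes counted in either tissue were higher in heart. The median ratio of heart to breast muscle was 4.51 for the 299 members counted in both, against 1.34 for the 18028 such genes in all. In heart 232 members had a count in all 18 libraries and 161 had a mean of 1 CPM or more. In breast muscle 103 had a count in all 18 libraries and 61 had a mean of 1 CPM or more. The median member had 1.16 CPM in heart and 0.294 CPM in breast muscle.

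The share of all counts held by the 300 genes was 7.25% ± 0.803 in low altitude spleens and 7.18% ± 0.632 in high altitude spleens (SD, n = 9 each). It was lowest in L9 at 5.80% and highest in H3 at 8.27%, and the altitudes overlapped throughout. This order leaned on the 2 genes with the highest means, which held 0.149% in L9 and 3.16% in H3. Without these 2 genes the share was 5.66% in L9 and 5.11% in H3. It was then 5.58% ± 0.382 in low altitude and 5.26% ± 0.567 in high altitude spleens. In heart the share of all 300 genes was 0.0810% ± 0.0311 at low altitude and 0.0973% ± 0.0422 at high altitude. In breast muscle it was 0.0221% ± 0.00432 and 0.0295% ± 0.0166 (n = 9 each in both tissues, low altitude first). No test was made on these sums, since the members were chosen on the same libraries.

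**Figure D2:**
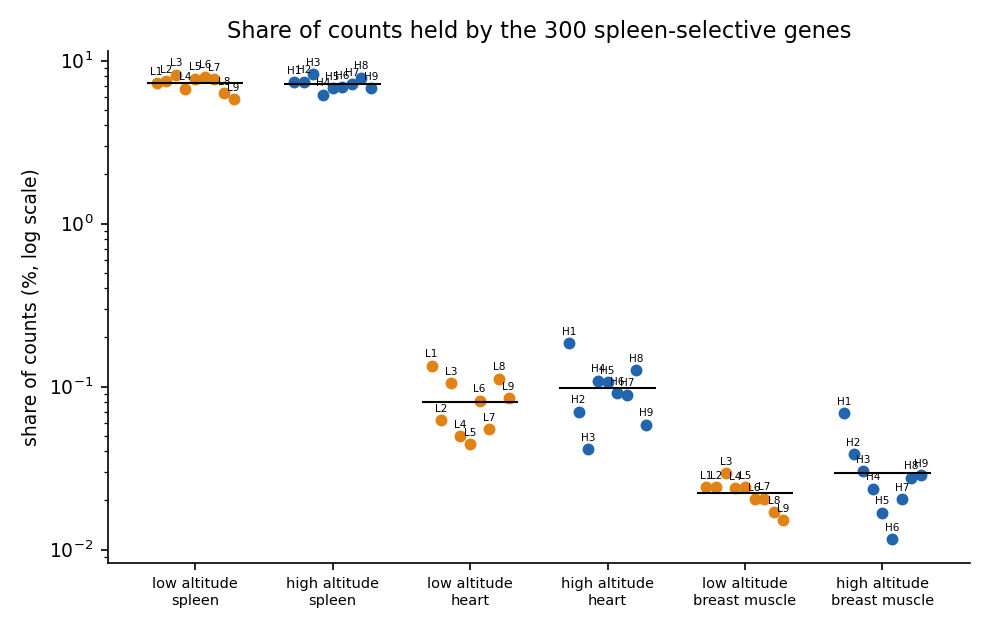
Share of a library's counts held by the 300 spleen-selective genes (y axis, percent, log scale) in each of the 54 libraries, low altitude orange and high altitude blue, with the mean of each group as a line. Spleens lie between 5.80% and 8.27%, and H1 is the highest heart at 0.185% and the highest breast muscle at 0.0685%.

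The code H1 stood highest in both other tissues. Its heart held 0.185% and the next, L1, 0.134%. Its breast muscle held 0.0685% and the next, H2, 0.0384%. In the H1 heart 274 of the 300 genes lay above their heart median and 105 were at their highest of 18. In the H1 breast muscle 223 lay above the median and 116 were at their highest. The spleen of the same code held 7.35%, near the middle of the spleens, but 2.82% was in the 2 genes with the highest means. Without these 2 genes it held 4.53%, where the 18 spleens ran from 4.46% to 6.30%. In the H1 spleen 110 of the 300 genes lay above their spleen median and 43 were at their lowest of 18. At the other end, the H3 heart held the lowest share, 0.0412%, with 24 of the 300 genes above their heart median. The L4 heart had the lowest value of 105 members, ties included, and 272 of the 300 had a count there.

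The limits were also applied to each altitude alone, and the genes so chosen were read in the libraries of the other altitude. A gene that met all limits at both altitudes is counted from either side, so the same 260 genes appear in both readings. The shares below differ only because the lists, of 277 and 347 genes, differ in length, and they are description. The 300 genes themselves were chosen on all 54 libraries, so their own ratios below are description only. Of 277 genes chosen by the same limits in the 27 high altitude libraries alone, 260 (93.9%) met all limits in the low altitude libraries, with a median ratio there of 76.8. Of 347 chosen in low altitude libraries alone, 260 (74.9%) met all limits in the high altitude ones, with a median ratio of 48.3. For the 300 genes the median ratio was 72.9 in low altitude libraries and 54.6 in high altitude libraries, and 64.4 in high altitude libraries without the code H1. Leaving out the code H1 altogether, 319 genes passed, 299 of them among the 300.

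The limits cut through a continuous range. On fold, ENSGALG00000014127 lay just inside at a ratio of 32.2 and ENSGALG00000008656 just outside at 31.96. On SD, ENSGALG00000030380 lay just inside at 1.49 and ENSGALG00000043742 just outside at 1.51. On level, ENSGALG00000027407 was the last member kept at 20.5 CPM, and ENSGALG00000040768, at 20.3 CPM, was passed over by the limit of 300.

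Although chosen with an upper limit on the spread, the 300 genes were not steady compared with other genes of the spleen. Their SD of log2(CPM + 1) over the 18 spleens ran from 0.232 to 1.49 with a median of 0.549. The 6685 other genes at 20 CPM or more in spleen had a median SD of 0.305, and 276 of the 300 (92%) lay above that. An SD of 0.5 or more was found in 179 members (59.7%), against 16.8% of the other genes, and an SD of 1 or more in 21 members (7%), against 1.93%. The gap was there at like levels: the median SD was 0.603 in members between 20 and 50 CPM and 0.330 in other genes of that level, and 0.527 against 0.280 between 100 and 1000 CPM. At 1000 CPM or more it was 0.506 in the 12 members and 0.486 in the 100 other genes. A label of steady level thus holds only in the sense that 6 more variable genes were left out.

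**Figure D3:**
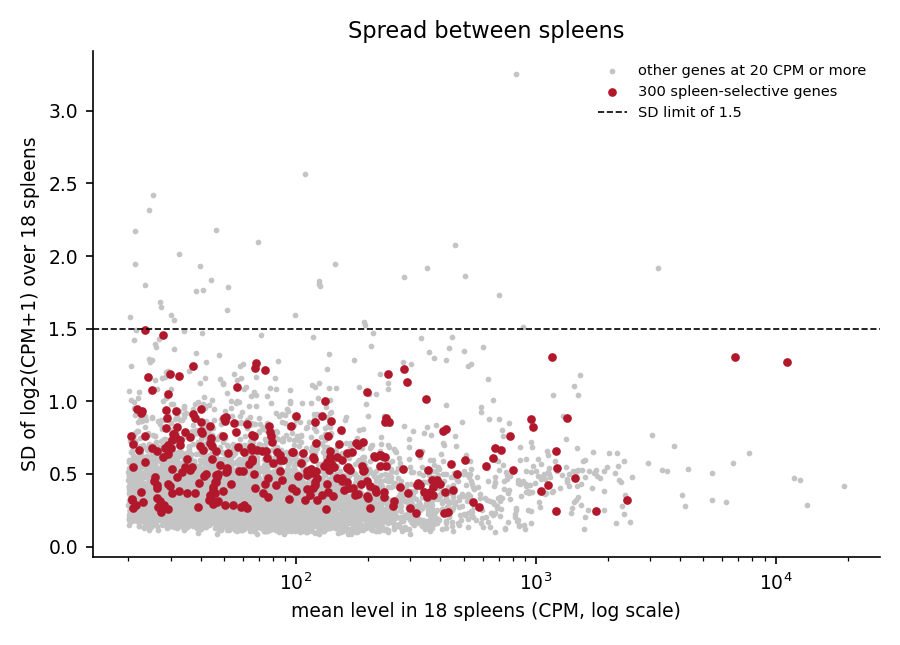
SD of log2(CPM + 1) over the 18 spleens (y axis) against mean level in spleen (x axis, CPM, log scale) for the 300 spleen-selective genes (red) and the 6685 other genes at 20 CPM or more (grey). Members reach up to the limit of 1.5 and lie mostly above the grey median of 0.305.

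The steadiest members were ENSGALG00000011241, ENSGALG00000002080 and ENSGALG00000007924, with SDs of 0.232, 0.233 and 0.238. ENSGALG00000011241 had 279 to 488 CPM with a median of 421 CPM in low altitude spleens, and 301 to 491 CPM with a median of 406 CPM in high altitude spleens. ENSGALG00000002080 had 243 to 362 CPM in low altitude spleens and 207 to 415 CPM in high altitude spleens. ENSGALG00000007924 had 310 to 457 CPM in low altitude spleens and 384 to 577 CPM in high altitude spleens, where H4 was the highest. The groups overlapped for all 3.

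ENSGALG00000030380 had the highest SD, 1.49, and 1 library made much of it. The L8 spleen had 217 CPM, the next highest was H4 at 40.1 CPM, and the lowest was L4 at 1.19 CPM. The L8 heart was also the highest heart for this gene, at 2.19 CPM.

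ENSGALG00000005842 had an SD of 1.45 and nearly no counts elsewhere, with 2 counts in the H1 heart, 0 in the other hearts and 0 in all 18 breast muscles. It had 1.10 to 90.0 CPM with a median of 33.2 CPM in low altitude spleens, and 3.72 to 38.2 CPM with a median of 17.8 CPM in high altitude spleens. The lowest spleens were L8, H7, H1 and H8, all under 5 CPM. ENSGALG00000011551, described above, was the next at an SD of 1.31.

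Members did not move as one between spleens, and were sorted into groups by their correlation. Over 44850 pairs of members, the median Pearson r over the 18 spleens, centred within altitude, was 0.0887, close to 0.0738 among the other genes at 20 CPM or more. Of the pairs, 17.8% had an r above 0.5 and 7.29% one below -0.5, against 13.4% and 6.90% among the other genes. Average-linkage clustering at a height of 0.5 gave 30 groups, 8 of which had 10 or more members and together held 223 of the 300. They are numbered here by size and are a description, with no test.

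Group 1 had 66 genes and a median spleen mean of 125 CPM. Its mean level was lowest in L8, H8, H4 and H1, between 6.03 and 6.10 log2(CPM + 1), and highest in L7 at 7.73 and L4 at 7.68. ENSGALG00000005544 and ENSGALG00000005842 belonged to it. Group 2, with 47 genes, was also low in H8 at 5.70 and H1 at 5.96 but was low in L4 too, at 5.98, and highest in L9 at 7.32. Group 3, with 32 genes of lower level (median spleen mean 41.5 CPM), moved little, between 4.91 in H7 and 5.996 in L6. Its genes had a median SD of 0.336.

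Group 5, with 21 genes, moved against group 1, with a median r of -0.498 between their genes. It was highest in H4 at 7.92, L3 at 7.69 and L8 at 7.22 log2(CPM + 1), and lowest in L4 at 5.33. Group 4, with 23 genes, was likewise highest in H4 (7.23) and lowest in L4 (5.34), and its genes had a median r of 0.411 with those of group 5. Groups 6 and 8, with 13 and 10 genes, had their highest level in L8, at 7.89 and 7.25.

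Group 7 had only 11 genes but held the 2 genes of highest level and the widest swings. Its median SD was 1.21. The mean level was 4.85 log2(CPM + 1) in L9 and 4.87 in H4, then 6.28 in L4, and it reached 8.59 in H8. Its genes also had the highest median ratio to the other tissues among the 8 groups, 294, where the other 7 lay between 47.2 and 64.5.

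**Figure D4:**
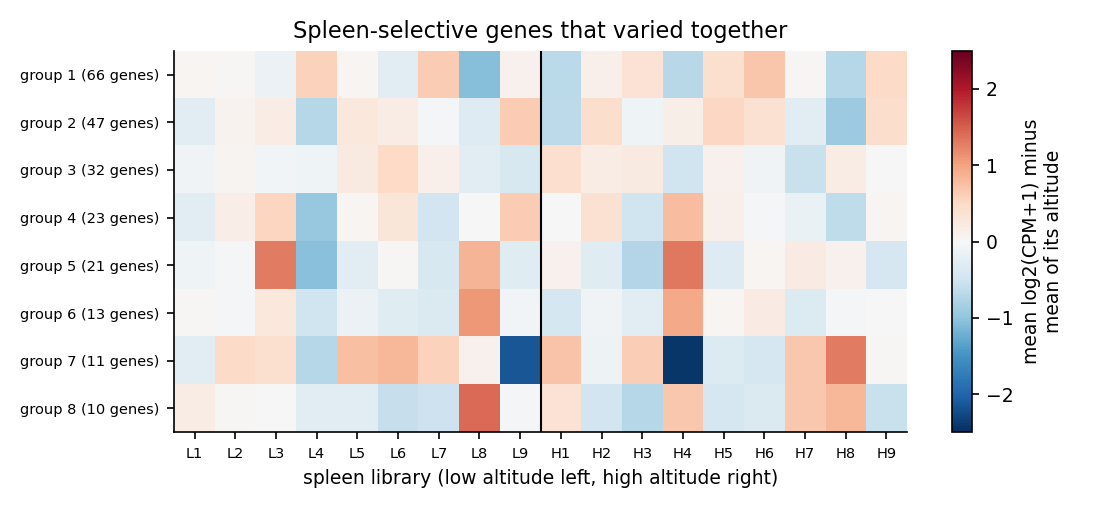
Mean log2(CPM + 1) of each of the 8 groups of 10 or more spleen-selective genes that varied together, minus the mean of its altitude (colour), in the 18 spleen libraries (x axis, low altitude left, high altitude right). Group 7 is low in L9 and H4, and groups 5 and 6 are high in H4 and in L3 or L8.

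Hearts and breast muscles were not used in the grouping. In hearts the median r within a group lay between 0.431 (group 1) and 0.676 (group 8), where all pairs of members had a median of 0.355. In breast muscles it lay between 0.184 (group 3) and 0.727 (group 8), against 0.185 for all pairs. The groups were not distinct from each other there: between the genes of groups 4, 5, 6 and 8 the median r was 0.560 to 0.630 in hearts and 0.398 to 0.684 in breast muscles, as high as within several groups. Group 7 alone had a median r of at most 0.124 with each of the other 7 in hearts and at most 0.0963 in breast muscles. These are over 18 libraries each, and all members of a library share its total. Counts were low, with a median gene of group 7 at 3.61 counts per heart. Within group 7 the median r was 0.674 in hearts and 0.353 in breast muscles. Its weak r with the other groups is description only, and whether low counts bear on it was not tested.

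For group 5, H4 and L3 were the 2 highest spleens and were among the 3 highest hearts and breast muscles, where H1 was highest. ENSGALG00000028256, a gene of group 5 and the tenth by level, was chosen for mention with its values in view. It had 169 to 4970 CPM with a median of 656 CPM in low altitude spleens, and 331 to 6150 CPM with a median of 701 CPM in high altitude spleens. H4 and L3 were the highest spleens, and H4 (155 CPM), L3 (89.7 CPM) and H7 (82.0 CPM) were the highest hearts. In breast muscle L3 (29.6 CPM), H1 (10.96 CPM) and H4 (10.4 CPM) were highest.

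For ENSGALG00000021139, of group 7, the L9 spleen was the lowest of 18, whereas the L9 heart, at 74.2 CPM, came after only 2 others. The highest heart was L8 at 202 CPM and the lowest L5 at 0.331 CPM. In breast muscle it was highest in L4 at 26.9 CPM and lowest in L9 at 0.266 CPM.

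The comparison of altitudes was not used in the choice, except that a gene with a very large altitude difference would have exceeded the limit on SD and been left out. In spleen no member passed. With edgeR's quasi-likelihood test and Benjamini-Hochberg adjustment, 0 of 13092 genes (0%) had an adjusted p under 0.05, and so 0 of the 300. An unadjusted p under 0.05 was found in 23 members (7.67%), against 5.77% of all genes tested. Of the 23, 13 were higher and 10 lower at low altitude, where 2.95% and 2.83% of all genes were. Members that vary together do not count as separate evidence. Limma-voom called 0 members (0% of all genes tested) and had 17 (5.67%) at that unadjusted p, against 4.98% of all genes tested. DESeq2 called 1 (0.333%), against 0.155% of all genes tested, and had 26 (8.67%) at that p, against 5.7% of all genes tested. The 23 became 10 without the H1 spleen, 13 without H7, 15 without L1, 35 without L8 and 37 without H6. All genes at that p moved as well, from 756 of 13092 in the main fit. In the order named they were 527 of 13186, 601 of 13207, 671 of 13192, 1026 of 13218 and 849 of 13203. Without H4, H7 and L3 together, 12 members and 541 of 13251 genes were at that p.

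Log2 fold changes of low over high altitude in spleen ran from -1.61 to 1.27 over the 300 genes, with a median of 0.09 and a median standard error (SE) of 0.23. They were positive in 194 genes and negative in 106, that is 64.7% positive, where 50.5% of all genes tested were positive with a median of 0.00. Without H4, H7 and L3 the median was 0.05, with 171 positive and 129 negative. That is 57% positive, against 51.7% of all genes tested. Members that vary together share such signs, so these are not separate genes' evidence. Changes under 0.5 in size made up 257 of the 300. The 5th and 95th percentiles were -0.46 and 0.60 for members and -0.47 and 0.49 for all genes tested. Changes over 1 in size were found in 5 members (1.67%), against 1.76% of all genes tested. For 0 of the 300 did the low altitude spleens lie wholly above or wholly below the high altitude ones, as for 0% of all genes tested.

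ENSGALG00000012357 had the smallest p. It had 77.2 to 278 CPM with a median of 116 CPM in low altitude spleens, and 142 to 1187 CPM with a median of 289 CPM in high altitude spleens. All 9 low altitude spleens were below the high altitude median, and 6 were below the lowest high altitude spleen, while H7 and H1 were highest at 1187 and 882 CPM. Its log2 fold change was -1.61 with an SE of 0.43 and an edgeR adjusted p of 0.568. By DESeq2 its adjusted p was 0.0425, and it was the 1 member called there. Over the 25 alternatives the adjusted p lay between 0.0425 and 1.0.

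ENSGALG00000041730 had 8.57 to 36.7 CPM with a median of 17.6 CPM in low altitude spleens, and 19.6 to 74.9 CPM with a median of 32.1 CPM in high altitude spleens. The groups overlapped, with 7 of 9 low altitude spleens below the high altitude median. The log2 fold change, -0.89 with an SE of 0.29, had an edgeR adjusted p of 0.813. In the other direction, ENSGALG00000032530 had 166 to 319 CPM with a median of 189 CPM in low altitude spleens, and 96.2 to 227 CPM with a median of 141 CPM in high altitude spleens. All 9 low altitude spleens were above the high altitude median, and the log2 fold change was 0.46 with an SE of 0.17 and an edgeR adjusted p of 0.830.

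ENSGALG00000001894 had 79.9 to 238 CPM with a median of 129 CPM in low altitude spleens, and 48.7 to 131 CPM with a median of 101 CPM in high altitude spleens. Of the low altitude spleens 6 were above the high altitude median, and the log2 fold change of 0.45, with an SE of 0.18, had an edgeR adjusted p of 0.844.

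**Figure D5:**
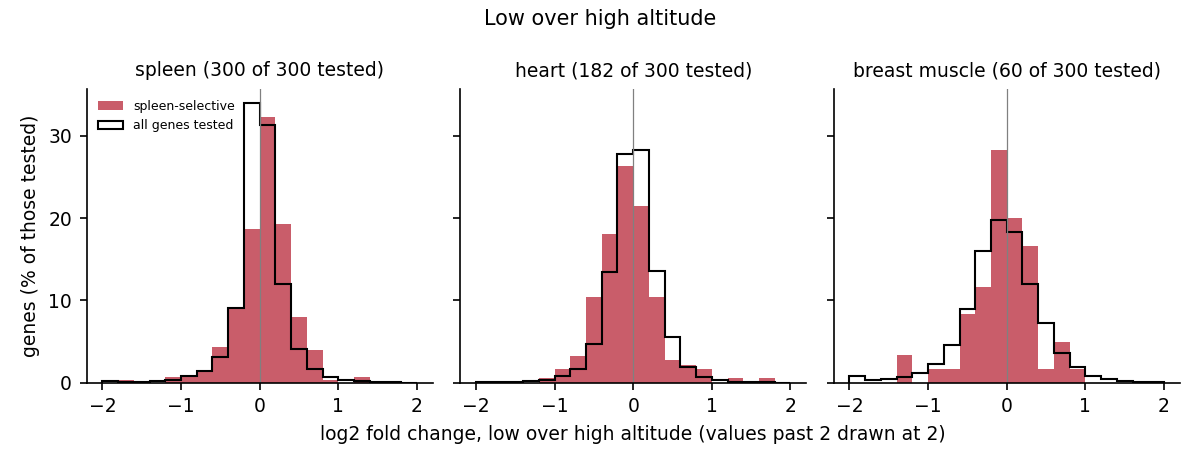
Log2 fold changes of low over high altitude (x axis; values past 2 in size are drawn at 2) as the percentage of genes tested (y axis), for the spleen-selective genes (red) and all genes tested (black line) in spleen, heart and breast muscle. The members' medians are 0.09 in spleen, -0.10 in heart (0.02 without the H1 heart, negative without any other heart) and -0.03 in breast muscle (0.01 with upper-quartile scaling).

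In heart, 182 of the 300 genes passed the filter on low counts and were tested. None had an edgeR adjusted p under 0.05, as for the 11872 genes tested (0%), and limma-voom (0% of all genes) and DESeq2 (0.21% of all genes) called 0 members too. An unadjusted p under 0.05 was found in 5 (2.75%), against 6.05% of all genes tested. By limma-voom these were 10 (5.5%), against 5.85% of all genes, and by DESeq2 14 of 300 (4.67%), against 5.51%. The median log2 fold change was -0.10, with 72 positive and 110 negative, against a median of 0.00 over all genes tested. Without the H1 heart, in which the members stood highest, that median was 0.02. It was negative in every other fit that left out 1 heart, from -0.18 without L1 to -0.01 without L4. In the other settings it lay between -0.09 and -0.05.

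In breast muscle only 60 of the 300 were tested. Of these, 0 had an edgeR adjusted p under 0.05, against 0.00988% of the 10120 genes tested (1 gene, no member), and limma-voom called 0 (0% of all genes). The count over all genes turned on single libraries, with 455 of 10219 genes called without H3, 55 without H6 and 42 without L2, and 0 to 2 without each of the other 15. Members called were 0 in all of these fits. An unadjusted p under 0.05 was found in 4 (6.67%), against 18.2% of all genes tested. Most members were too low here to be tested, and the genes set beside them were not matched in level. The median log2 fold change was -0.03, with 27 positive and 33 negative, against -0.05 over all genes tested (44.9% positive). It was 0.01 with upper-quartile scaling, 0.12 by limma-voom and 0.08 with the replicate number as a block, so it has no stable sign. Without the codes H1, H4, H7 and H8, which stand apart in this tissue, it was -0.28, with 16 positive and 60 negative of 76 tested, against -0.01 over all genes tested (49.4% positive).

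DESeq2, run without edgeR's filter, called 5 of 299 members in breast muscle (1.67%), against 2.9% of all genes tested. It had 22 (7.36%) at an unadjusted p under 0.05, against 13.2%. The 5 were picked for mention with their values known. ENSGALG00000012550, the sixth member by level, had 36 to 84 counts in low altitude breast muscles and 26 to 780 in high altitude ones, with H1 the highest. Its log2 fold change was -1.25 by DESeq2 (adjusted p = 0.0440), and its edgeR adjusted p was 0.120. The other 4 were too low for edgeR's filter. ENSGALG00000028256 had 1 to 352 counts with a median of 3 at low altitude, and 2 to 126 with a median of 8 at high altitude. Its highest library was thus a low altitude one, L3, and DESeq2 called the gene lower there after replacing that 352 by 9 as an outlier, so the call does not use the deposited value. ENSGALG00000006165 had 0 to 14 counts with a median of 7 at low altitude, and 4 to 233 with a median of 9 at high altitude, where H1 and H7 held 233 and 219 and the next, H8, 40. ENSGALG00000025810 had 0 to 6 counts at low altitude and 3 to 24 at high altitude. ENSGALG00000040561, the only one of the 5 that was higher at low altitude, had 3 to 22 counts at low altitude and 0 to 7 at high altitude.

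By the same limits on unscaled CPM, genes selective for the other tissues were fewer, with 70 for heart and 85 for breast muscle. TMM scaling cut the spleen count from 302 to 105. Counts for heart and breast muscle were not made with it, so this order may depend on the scaling. The own-tissue SD of the heart and breast muscle genes had a median of 0.638 and 0.818, against 0.549 for the 300 in spleen. Their share of the counts in their own tissue ran from 6.54% to 12.5% in hearts and from 3.79% to 19.2% in breast muscles, against 5.80% to 8.27% for the 300 in spleens.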

How the data were processed

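Per the labels, a TruSeq Stranded mRNA kit was used on total RNA. The deposited files give raw counts per gene as whole numbers for 24881 identifiers, 1 file for each library. The submitters' processing notes name HISAT2 2.0.4, featureCounts, FastQC, Cuffdiff, Cufflinks and build galGal4, with no role or order. Whether counting used strand was not stated there, so values of overlapping genes and near-identical paralogs are uncertain. CPM and log2(CPM + 1) were computed from file totals in Python 3.11.15. Low altitude was tested over high altitude within each tissue (9 against 9) with edgeR 4.0.16 in R 4.3.3, using TMM scaling, the default low-count filter, the robust quasi-likelihood test and Benjamini-Hochberg adjustment over all genes tested; an adjusted p under 0.05 counted as past the threshold. SE is the log2 fold change over the root of F. The test was checked on simulated counts. Alternatives were RLE and upper-quartile factors, no filter, DESeq2 1.42.0, limma 3.58.1 voom, the replicate number as a block, and leaving out libraries. DESeq2 kept its default settings, which filter on mean count before adjustment. A gene that it left without an adjusted p was counted as tested and not called. Genes with no count beyond a tissue's floor were set at 3 counts over its 18 libraries in ratios. Named genes are the 3 highest by mean, by ratio, by lowest and by highest SD, the 2 per direction with the smallest p in spleen, and those nearest the limits; others are marked. The members, lists and alternatives were chosen with earlier results of these data known. The marker lists could not be read without symbols.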

Additional observations from a re-analysis of the deposited data

Results flagged for a closer look

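In 62 sets of 9 values (the members' share in each group, named genes in each spleen group, and the means of the 8 groups of genes that varied together), a library counted as far from the others when its gap to the nearest, divided by the range, exceeded Dixon's critical value for 9 values at 95%. This held in 13 sets. Chance flags about 1 in 20 sets that were not picked on their values, but several of these genes were named for a wide spread or with their values in view, and sets of genes that vary together are not separate, so no chance count applies. Values are log2(CPM + 1) in spleen unless said otherwise, and no explanation was tested.

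The H4 spleen stood apart in 6 of these sets among high altitude spleens. It was lowest for ENSGALG00000021139 (10.09, next 12.51), for ENSGALG00000011551 (9.43, next 11.73) and for the mean of group 7 (4.87, next 6.88), which holds both genes. It was highest for ENSGALG00000028256 (12.59, next 9.94) and for the means of group 5 (7.92, next 6.82) and group 6 (7.61, next 6.86).

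Among low altitude spleens, L8 was lowest for ENSGALG00000005842 (1.07, next 4.297) and highest for the means of group 6 (7.89, next 7.08) and group 8 (7.25, next 6.01). L4 was highest for ENSGALG00000012550 (12.10, next 10.19) and lowest for ENSGALG00000011241 (8.13, next 8.54). L9 was lowest for ENSGALG00000021139 (9.83, next 12.81). Outside spleen, the share of counts held by the 300 genes was highest in the H1 breast muscle, at 0.068% against 0.038% in the next high altitude library.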

How the results depend on the processing

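The number of genes passing all limits, 302, was 559 with a 16-fold minimum, 146 with a 64-fold minimum and 105 with TMM-scaled CPM. It stayed between 277 and 388 with 10 CPM, an SD limit of 1 or none, medians, 1 altitude alone or, chosen after seeing the data, without the code H1. Without the 20 most abundant genes, the members' share was 6.08% in high altitude spleens, against 7.18%. In low altitude spleens it was 6.52%, against 7.25%. Members past the threshold numbered 0 in each tissue by edgeR under every scaling and filter run, by limma-voom and in each of the 18 fits per tissue that left out 1 library (lowest and highest 0), but 1 in spleen and 5 in breast muscle by DESeq2. With the replicate number as a replicate block they were 0 in each tissue. At an unadjusted p under 0.05 there were 19, 7 and 4 members in spleen, heart and breast muscle. EdgeR without the block gave 23, 5 and 4. Over all genes, the block gave 739 of 13092, 931 of 11872 and 1537 of 10120 at that p. Without the block these were 756, 718 and 1838. Of 9 same-numbered pairs, 5, 5 and 3 had deviations correlated above 0.1. These r ran from -0.39 to 0.41 in spleen, -0.22 to 0.64 in heart and -0.31 to 0.44 in breast muscle. Of 9 low altitude libraries, 2, 2 and 1 correlated best with their own number. Pairing by number is not stated in the labels and was not tested. In heart, 5 of 182 members were at that p, and 718 of 11872 genes. Without H3 these were 14 of 193 members and 1308 of 12003 genes. The members were 9 without H5, H9 or L9 and 8 without H7, L1, L3, L5, L6 or L8. Over all genes, these 9 fits had 566 to 962 at that p. Limma-voom had 10 of 182 members, the fit without the filter 13 of 300 and DESeq2 14 of 300. All genes there gave 695 of 11872, 1428 of 20011 and 1102 of 20011. In breast muscle 4 of 60 members were at that p, and 1838 of 10120 genes. Without H2 these were 7 of 64 members and 2135 of 10232 genes. The fit without the filter had 27 of 299 members and 2765 of 18531 genes. DESeq2 had 22 of 299 members and 2451 of 18531 genes. The log2 fold changes of the 4 spleen genes with the smallest p kept their sign in all 25 alternatives. The median r between members in spleen was 0.0775 with TMM scaling and 0.0996 without H4, H7 and L3. Depth limits the values outside spleen, where the median member had 290.5 counts over all hearts and 60 over all breast muscles; the causes of these shifts were not tested.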

Other observations

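The 6 spleen-selective genes left out by the limit on SD had SDs of 1.51 to 2.56. ENSGALG00000043742, the most abundant of them, had 886 CPM on average over the 18 spleens, with 40.7 CPM in the lowest and 2614 CPM in the highest spleen. ENSGALG00000042285 had 507 CPM on average, from 11.8 to 1422 CPM, and ENSGALG00000000081, with the highest SD, had a median of 9.83 CPM and a highest spleen of 1040 CPM. These 3 were picked after their values were seen.

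The spread between spleens was also read within each altitude. Of the 300 genes, 128 had the larger SD in low altitude spleens and 172 in high altitude spleens, with median SDs of 0.514 and 0.571. Among the other genes at 20 CPM or more, 48.4% had the larger SD at low altitude, against 42.7% of the members. No test was made, since the choice used the spread over both altitudes.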
